A study of Mus musculus with 8 samples.

Results

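The constitutive proteasome genes were followed in kidney RNA of adult and aged mice. Members were the protein-coding genes of the table whose symbol begins with Psma, Psmb, Psmc, Psmd or Psme and a digit, without the 3 immunoproteasome subunits Psmb8, Psmb9 and Psmb10 and without 4 pseudogene rows, which left 42 of 30153 rows. The rule picked members by name, but the set was chosen with earlier results of these data known. Of the 42 genes, 8 encode alpha and 8 beta subunits of the 20S core, 6 encode ATPases and 11 non-ATPase subunits of the 19S cap, 3 are chaperones of cap assembly (Psmd5, Psmd9 and Psmd10) and 5 encode other activators. The last, Psmc3ip, is named after the subunit that its product binds, acts in meiotic recombination and is no proteasome subunit. The study measured polyadenylated RNA in kidneys of C57/BL6 mice that overexpress the human angiotensin receptor type 1 gene as its haplotype II (Hap-II), described as hypertensive in the series title. Adult Hap-II mice on a western diet (4 animals, 1 library each) were set against aged Hap-II mice on the same diet (4 animals, 1 library each). All 8 animals carried the transgene and ate the western diet, so the comparison is of age on that background, and the labels name neither the promoter of the transgene nor an age in numbers.

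The proteasome is the main protease of the cytosol and nucleus for proteins marked with ubiquitin. Its 20S core is a stack of alpha, beta, beta and alpha rings in which Psmb5, Psmb6 and Psmb7 carry the chymotrypsin-like, caspase-like and trypsin-like active sites, and the 19S cap binds ubiquitin chains, removes them and unfolds the substrate with its ring of ATPases. In immune cells and under interferon, Psmb8, Psmb9 and Psmb10 take the places of Psmb5, Psmb6 and Psmb7. The transcription factor NFE2L1 raises many subunit genes together when proteasome activity falls short.

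Values are TPM, transcript abundances corrected for length and scaled to a nearly fixed total per library, so a larger share of one class of RNA lowers all others. Of a nominal total of 1000000 TPM, mitochondrially encoded protein-coding transcripts held 22.8% ± 3.02 in adult and 35.9% ± 8.48 in aged libraries (SD, n = 4 each). Mitochondrial shares throughout are of that nominal total, which the column totals did not reach. The log2 fold changes of all 11796 genes tested had a median of −0.11. Between 10663 and 12293 genes reached 1 TPM per library. The summed Y-linked transcripts lay between 0.485 and 2.298 TPM in both groups' replicates 1 and 2, and between 34.7 and 50.6 TPM in replicates 3 and 4, a division that the labels do not name. The defining markers of proximal tubule, thick ascending limb, distal convoluted tubule, collecting duct and podocytes were all detected. In whole tissue, fewer cells of a type and less RNA per cell cannot be told apart.

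Proteasome RNA was lower in the aged kidneys across most of the complex on the deposited scale, and no single gene passed the test. The 42 genes summed to 3627, 3985, 3229 and 3089 TPM in adult replicates 1 to 4 and to 2791, 3047, 2359 and 2745 TPM in the aged ones. On this scale every aged library lay below every adult one, with means of 3482 ± 406 and 2735 ± 284 TPM (SD, n = 4 each), 21.5% lower in aged kidneys. Both the separation of the groups and the size of the difference depended on the scale. After division by size factors (1.49 for adult replicate 1 and 0.685 for aged replicate 3), adult replicate 1 lay below aged replicate 3. The difference of the means was −747 TPM as deposited, −191 TPM after the mitochondrially encoded genes were removed and the rest rescaled, and −171 TPM after quantile normalization. A mean of at least 1 TPM, the limit for testing, was reached by 39 of the 42 genes. The testis subunit Psma8 (at most 0.384 TPM), the thymus subunit Psmb11 (at most 0.0347 TPM) and Psme2b, an intronless relative of Psme2 (at most 1.003 TPM), did not reach it. Of the 39 tested, 36 had negative log2 fold changes (median −0.30), against 65% of all genes tested. Negative values numbered 33 under size factors, 21 under quantile normalization and 20 once mitochondrial genes were removed, where the members' medians were −0.20, −0.044 and −0.017 and those of all genes −0.017, 0.0080 and 0.14. Removal of each library's length trend left 31 negative, with medians of −0.15 for the members and −0.0020 for all genes. By limma with Benjamini-Hochberg adjustment 0 members passed an adjusted p of 0.05, as did 0% of all genes, and 4 members (Psmb4, Psmb5, Psmb6 and Psmc2) were lower at an unadjusted p under 0.05, where 2.76% of all genes were lower and 0.636% higher. The groups did not overlap for 5 members (12.8%), all lower in aged kidneys and all of the 20S core, against 2.11% of all genes that were lower and 0.348% that were higher in this way. These were Psma5, Psma6, Psmb5, Psmb6 and Psmb7. Such members numbered 10 without adult replicate 3 and 9 without aged replicate 2, with 4.37% and 5.15% of all genes lower in this way. They numbered 0 under size factors (2.60% of all genes), 2 under quantile normalization (1.87% of all genes) and 1 once mitochondrial genes were removed (0.552% of all genes).

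**Figure D1:**
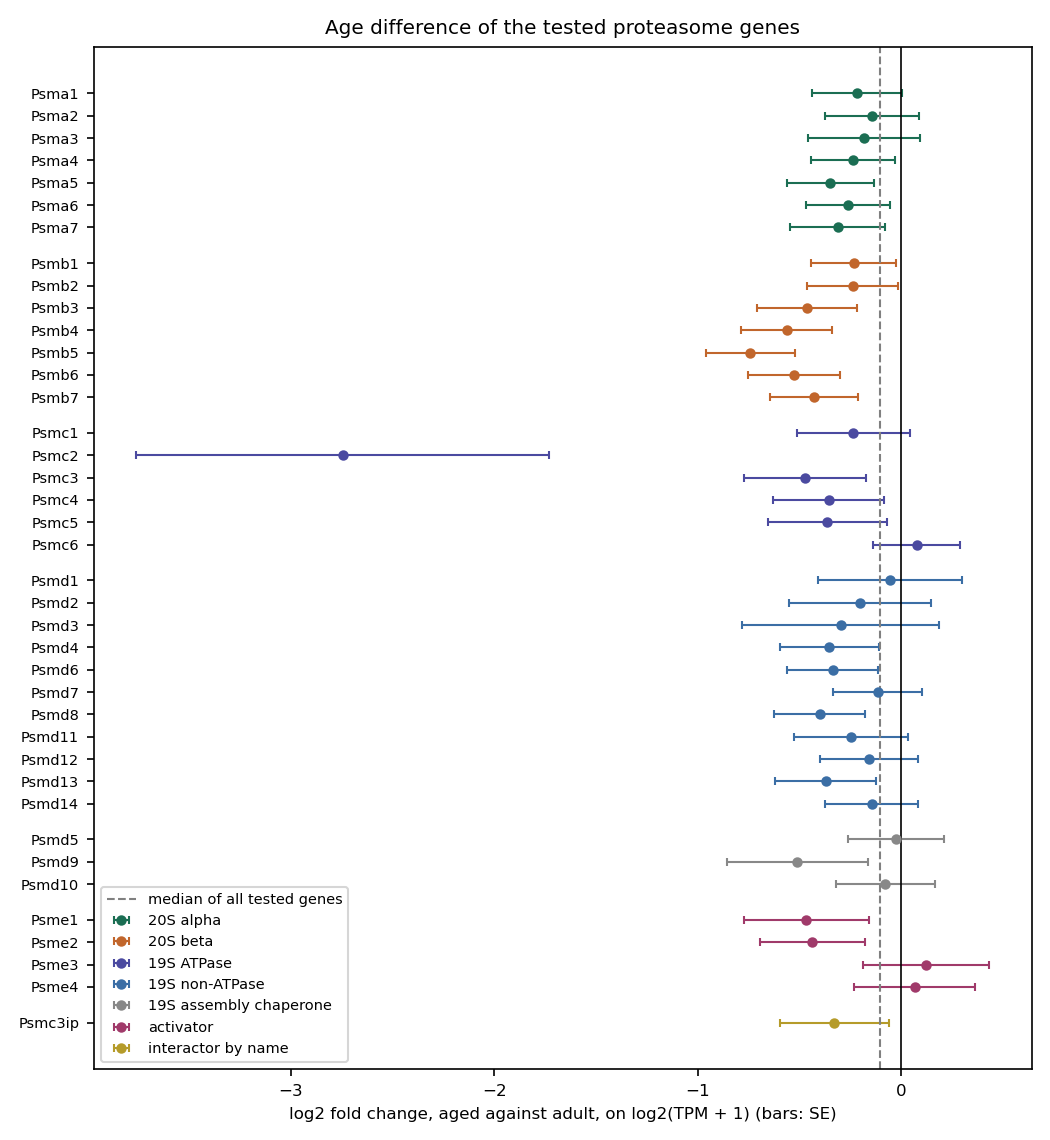
Log2 fold change of each tested gene between aged and adult kidneys (x axis, on the log2(TPM + 1) scale, with SE bars from limma, 4 libraries a group), in blocks by role (y axis), with the median of all genes tested as a dashed line. Of the 39 points 36 lie left of 0 on the deposited scale (20 with mitochondrial genes removed and 21 with quantile normalization), the beta subunits Psmb3 to Psmb7 lie farther left than any alpha subunit, and Psmc2 stands apart at −2.74.

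The beta ring had the lowest median log2 fold change of the 4 core and cap groups. All 7 tested beta genes had negative log2 fold changes, between −0.74 and −0.23 with a median of −0.46, and 0 passed the test over all genes. Psmb5, which holds the chymotrypsin-like site that proteasome inhibitor drugs bind, had adult values of 169, 204, 157 and 173 TPM and aged values of 107, 123, 84.1 and 106 TPM. The highest aged library lay below the lowest adult one. Means were 176 ± 20.2 and 105 ± 16.2 TPM (SD, n = 4 each), 40.2% lower, with a log2 fold change of −0.74 (SE 0.22, limma unadjusted p = 0.00550, adjusted p = 1.00). Psmb6, with the caspase-like site, had adult values of 253, 305, 246 and 233 TPM and aged values of 212, 204, 136 and 172 TPM. Aged replicate 3 was the lowest and the groups did not overlap, with a log2 fold change of −0.53 (SE 0.23). Psmb7, with the trypsin-like site, had adult values of 149, 161, 116 and 119 TPM and aged values of 95.9, 113, 92.8 and 99.7 TPM, again without overlap and with a log2 fold change of −0.43 (SE 0.22). The genes lie apart from each other in the genome, Psmb5 at chr14:54614119-54618022, Psmb6 at chr11:70525367-70527858 and Psmb7 at chr2:38588036-38644087 (GRCm38, GENCODE M21).

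**Figure D2:**
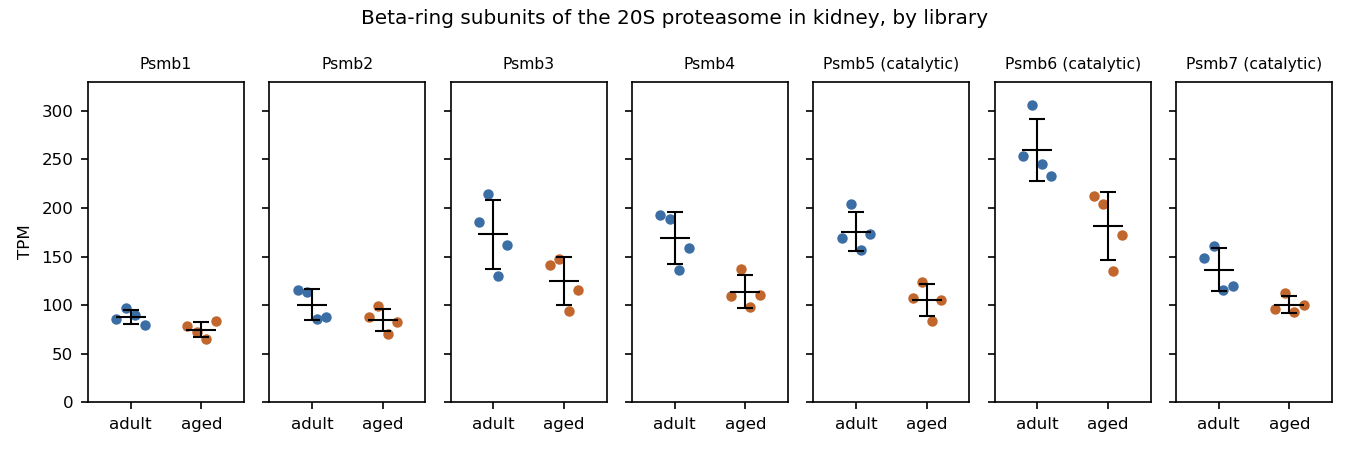
TPM (y axis, from 0) of the 7 beta-ring genes expressed in kidney, by library, with adult points in blue, aged points in orange and mean ± SD in black (n = 4 each). For Psmb5, Psmb6 and Psmb7 all aged points lie below all adult points, while for Psmb1 to Psmb4 the groups overlap.

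The size of the difference of the catalytic genes varied between the classes of Y-linked transcripts and followed the scale used. As their groups did not overlap, a negative sign within each class was fixed in advance and is no further support. The log2 fold change of Psmb5 was −0.69 in replicates 1 and 2 and −0.80 in replicates 3 and 4, that of Psmb6 −0.42 and −0.64, and that of Psmb7 −0.57 and −0.29 (2 libraries a group, no test). With mitochondrially encoded genes removed and TPM rescaled, the log2 fold changes were −0.46 for Psmb5, −0.24 for Psmb6 and −0.14 for Psmb7, and the median of all genes was 0.14. Psmb5 alone of all members still had no overlap on that scale, where 0.552% of all genes were lower in this way. With size factors the groups overlapped for all 3, with log2 fold changes of −0.64, −0.43 and −0.33. Ratios within a library do not depend on its scale. Psmb5 amounted to 18.9, 17.4, 13.7 and 19.1% of the summed alpha subunits in adult and 12.1, 14.6, 9.78 and 12.5% in aged kidneys, where adult replicate 3 lay below aged replicate 2. Means were 17.3% ± 2.49 and 12.2% ± 1.98 (SD, n = 4 each).

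The sequences before the starts of Psmb5 and Psmb6 are shown because these are the catalytic genes whose groups did not overlap and for which a promoter sequence was at hand. Both hold TGACNNNGC, the core of the antioxidant response element to which NFE2L1 and NFE2L2 bind, printed in capitals. The stretches are those of the 250 bases before the RefSeq start (GRCm38.p6) that no exon of GENCODE M21 covers, chr14:54618023-54618245 on the minus strand for Psmb5 and chr11:70525107-70525356 on the plus strand for Psmb6, each 5′ to 3′ along its gene.
Psmb5: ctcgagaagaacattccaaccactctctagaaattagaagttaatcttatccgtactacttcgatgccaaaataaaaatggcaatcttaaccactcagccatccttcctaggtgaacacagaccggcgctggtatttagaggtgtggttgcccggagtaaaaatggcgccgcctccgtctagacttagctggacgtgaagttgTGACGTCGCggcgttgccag
Psmb6: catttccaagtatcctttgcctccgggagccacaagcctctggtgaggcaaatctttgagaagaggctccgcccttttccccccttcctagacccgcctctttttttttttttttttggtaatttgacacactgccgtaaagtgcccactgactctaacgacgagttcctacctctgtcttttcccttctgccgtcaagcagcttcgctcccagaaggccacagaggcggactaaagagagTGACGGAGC
The core begins 47 bases before the start of Psmb5 and 9 bases before that of Psmb6. Of 7 motifs searched on both strands, this one occurred in 5 of the 35 members with a promoter sequence (14.3%) and in 11.5% of 27025 genes. That share was near the background, so the core is not particular to the members. Motifs whose shares lay farther from the background are given under the other observations. The other members with it were the assembly chaperone Psmd9, the ATPase Psmc6 and the lid subunit Psmd12. Their matches are shown with up to 10 bases on either side for comparison with the pair above, and those of Psmc6 and Psmd12 lie on the opposite strand.
Psmd9 (chr5:123228149-123228177): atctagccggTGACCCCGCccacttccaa
Psmc6 (chr14:45329587-45329615): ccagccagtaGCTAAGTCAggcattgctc
Psmd12 (chr11:107479278-107479299): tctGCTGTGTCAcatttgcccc
The log2 fold changes of these 5 genes spanned −0.74 (Psmb5) to 0.076 (Psmc6), with −0.51 for Psmd9 and −0.16 for Psmd12. Whether they differed from each other, or from the genes without the core, was not tested. A match is a description of the letters and not a binding site.

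The other beta subunits, which form the ring without an active site of their own, were lower on average with overlapping groups. Psmb4 had adult values of 193, 188, 137 and 159 TPM and aged values of 109, 138, 97.9 and 111 TPM, and aged replicate 2 passed adult replicate 3 by a small margin (log2 fold change −0.56, SE 0.22, limma unadjusted p = 0.0270). The adult mean of Psmb3 was 173 ± 35.6 TPM and its aged mean 125 ± 24.5 TPM (SD, n = 4 each). Psmb1 and Psmb2 differed less, at 87.98 ± 7.14 and 74.8 ± 7.93 TPM for Psmb1 and 101 ± 16.1 and 84.9 ± 11.6 TPM for Psmb2. By level over all 8 libraries, Psmb6 was the highest beta gene at 220.2 TPM and Psmb1 the lowest expressed one at 81.4 TPM. The sum of Psmb5, Psmb6 and Psmb7 was 63.7, 57.1, 45.3 and 57.98% of the summed alpha subunits in adult and 46.8, 52.1, 36.3 and 44.8% in aged kidneys, so the groups overlapped. For the other beta subunits that share was 52.3% ± 10.7 and 46.4% ± 6.501 (SD, n = 4 each).

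The alpha ring, which gates the entry to the core, had smaller differences than the beta ring and the smallest SD of the 4 core and cap sums among aged libraries. Summed alpha subunits were 896, 1174, 1144 and 906 TPM in the adult libraries against 888, 846, 859.5 and 844 TPM in the aged ones, with an SD of 20.3 TPM among the aged and 149.6 TPM among the adult libraries. The groups did not overlap on the deposited scale, but adult replicate 1 and aged replicate 1 were close. All 7 tested alpha genes had negative log2 fold changes, with a median of −0.24, and 0 passed. Psma5 had adult values of 82.7, 103, 117 and 85.7 TPM and aged values of 79.6, 70.8, 74.1 and 76.8 TPM, with no overlap (log2 fold change −0.35, SE 0.21). Psma6 had adult values of 159.6, 204, 197 and 161 TPM and aged values of 157, 153, 138 and 149 TPM, again with no overlap, although aged replicate 1 reached close to adult replicate 1 (log2 fold change −0.26, SE 0.20). The difference of Psma6 was 0.025 with mitochondrial genes removed and 0.040 with quantile normalization. With mitochondrial genes removed, Psma5 had −0.063 and Psma7 −0.024. Psma7, the highest of all members at a mean of 233 TPM, had adult values of 192, 313, 315 and 224 TPM and aged values of 229.9, 207, 196 and 189.8 TPM. Its adult replicates 2 and 3 were high and adult replicates 1 and 4 were within the aged range (log2 fold change −0.31, SE 0.23, and 0.0035 with quantile normalization). Psma1, Psma2 and Psma4 averaged 107, 37.2 and 179.7 TPM in the adult libraries against 91.4, 33.2 and 153 TPM in the aged ones, and Psma2 was the lowest of the alpha genes tested.

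Psma3 shares all of the 31-base words of a processed pseudogene, Gm13835 (chr6:31141979-31142663), so that reads of one can be counted for the other. This pair was singled out after its values were seen. Psma3 itself had adult values of 130.2, 186, 209 and 146 TPM and aged values of 149.8, 97.6, 212 and 143 TPM, with no order by group. Gm13835 was listed at 78.5, 107, 78.4 and 68.5 TPM in the adult libraries against 42.2, 60.1, 10.6 and 38.9 TPM in the aged ones. All of its aged values lay below its adult ones (log2 fold change −1.32, SE 0.44, limma adjusted p = 1.00). These rows moved apart in aged replicate 3, where Psma3 was highest and Gm13835 lowest of all libraries. Their sum was 209, 294, 287 and 215 TPM in the adult libraries against 192, 158, 223 and 182 TPM in the aged ones, a log2 fold change of −0.40 (SE 0.22) against −0.18 for Psma3 alone. Processed copies of Psma4, Psma5 and Psmd11 averaged at most 0.631 TPM and their addition moved the log2 fold change of Psmd11 from −0.25 to −0.24.

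The ATPases that unfold substrates showed 1 gene far from the rest. Psmc2 (Rpt1, chr5:21785283-21803787) had adult values of 56.2, 46.4, 29.6 and 31.8 TPM and aged values of 30.1, 0.264, 29.2 and 0.136 TPM. The aged libraries fell into a pair at the level of the lower adult ones and a pair, replicates 2 and 4, near 0. Its log2 fold change was −2.74 (SE 1.01, limma unadjusted p = 0.0198, adjusted p = 1.00), and it spanned −3.53 without aged replicate 1 to −1.94 without aged replicate 4, with −1.99 without aged replicate 2 and −3.52 without aged replicate 3. The value depends on the pseudocount, being −3.75 with 0.1 and −1.74 with 5. The other 5 ATPases of the same ring were at 56.9 TPM or more in these 2 libraries. Of 4892 genes with a median of at least 10 TPM, 34 had some library under 1 TPM, and 1, Psmc2, was under 1 TPM in exactly these 2. This pair of libraries was taken from Psmc2 itself, so its own match was fixed and the count describes only the absence of others. No other gene shared 0.5 or more of its words with Psmc2. Among the remaining ATPases, Psmc3 (Rpt5), the highest by mean at 102 TPM, had adult values of 152, 135, 92.3 and 92.8 TPM and aged values of 106, 117, 54.2 and 69.1 TPM (log2 fold change −0.47, SE 0.30). Psmc4 (Rpt3) had adult values of 72.2, 67.4, 42.6 and 56.6 TPM and aged values of 33.7, 56.9, 38.4 and 58.2 TPM (log2 fold change −0.36, SE 0.27). For both genes adult replicates 1 and 2 were the highest and the groups overlapped. Psmc3 had −0.27 without aged replicate 3, and Psmc4 had −0.22 without aged replicate 1. Psmc1 and Psmc5 averaged 71.1 and 72.7 TPM in the adult libraries against 60.7 and 56.5 TPM in the aged ones. Psmc6 was the only tested core or cap gene whose mean was higher in aged kidneys, at 62.9 ± 8.51 and 66.1 ± 4.77 TPM (SD, n = 4 each).

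The non-ATPase subunits of the cap, which bind ubiquitin chains and remove them, were lower by smaller amounts on the deposited scale, and all groups overlapped. All 11 had negative log2 fold changes as deposited, between −0.40 and −0.056 with a median of −0.25, and 0 passed. Psmd8 (Rpn12), the highest of them, had adult values of 118, 116, 87.9 and 93.5 TPM and aged values of 75.00, 89.2, 65.2 and 83.4 TPM (log2 fold change −0.40, SE 0.22). Only aged replicate 2 of Psmd8 reached the adult range. Psmd6 (Rpn7) had adult values of 71.8, 71.96, 60.9 and 64.2 TPM and aged values of 42.8, 64.6, 50.7 and 55.6 TPM (log2 fold change −0.34, SE 0.22). Psmd13 (Rpn9) had adult values of 74.99, 71.95, 55.6 and 52.1 TPM and aged values of 42.1, 57.1, 38.4 and 59.2 TPM (log2 fold change −0.37, SE 0.25). Aged replicate 2 of Psmd6 and aged replicates 2 and 4 of Psmd13 reached into the adult range. With mitochondrial genes removed, the log2 fold changes were −0.12 for Psmd8, −0.053 for Psmd6 and −0.089 for Psmd13. The deubiquitinase Psmd14 (Rpn11) averaged 67.02 ± 12.5 and 59.9 ± 5.74 TPM and the ubiquitin receptor Psmd4 (Rpn10) 69.5 ± 12.2 and 54.3 ± 9.98 TPM (SD, n = 4 each). The large scaffold subunits Psmd1 (Rpn2) and Psmd2 (Rpn1) averaged 22.1 and 34.8 TPM in the adult libraries against 21.2 and 29.6 TPM in the aged ones, and Psmd1 was the lowest of this group. Psmd3 (Rpn3) ranged most widely, from 20.5 to 98.9 TPM among adult and from 16.6 to 62.7 TPM among aged libraries. Psmd7, Psmd11 and Psmd12 averaged 55.4, 38.2 and 38.9 TPM in the adult libraries against 51.3, 33.05 and 34.7 TPM in the aged ones. The chaperones of cap assembly were low, with 12.2 ± 4.79 and 8.23 ± 3.31 TPM for Psmd9 (log2 fold change −0.51, SE 0.35), 21.2 ± 2.02 and 20.98 ± 3.86 TPM for Psmd5 and 13.1 ± 2.83 and 12.2 ± 1.002 TPM for Psmd10 (SD, n = 4 each). Psmc3ip, the gene included by name only, averaged 5.02 ± 1.29 and 3.78 ± 0.849 TPM.

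Among the activators 2 of 4 tested had negative log2 fold changes and 0 passed. Psme1 and Psme2, which together form the interferon-inducible PA28 ring and lie near each other on chromosome 14, were lower on average in aged kidneys. Psme1 had adult values of 92.1, 107, 66.7 and 59.04 TPM and aged values of 76.02, 77.3, 37.1 and 47.6 TPM, and Psme2 had adult values of 111, 179, 135 and 101 TPM and aged values of 117, 107, 79.6 and 79.6 TPM. Aged replicates 3 and 4 were the lowest for both genes and the groups overlapped (log2 fold changes −0.47, SE 0.31, and −0.44, SE 0.26). Psme1 had −0.27 without aged replicate 3, and Psme2 had −0.28 without adult replicate 2. Once mitochondrial genes were removed, Psme1 had −0.18 and Psme2 −0.15. Psme3, which forms the nuclear PA28 gamma ring, had adult values of 39.4, 34.6, 28.2 and 38.7 TPM and aged values of 31.01, 58.9, 22.8 and 49.9 TPM (log2 fold change 0.12, SE 0.31). Its sign was negative without aged replicate 2 (−0.084) or aged replicate 4 (−0.0059). Psme2b shares 76.5% of its words with Psme2. Psme4, which encodes PA200, averaged 14.7 ± 4.65 and 15.3 ± 4.62 TPM (SD, n = 4 each). The immunoproteasome subunits stood far below the constitutive ones that they replace. Psmb8 had adult values of 11.1, 10.8, 2.16 and 9.78 TPM and aged values of 12.1, 4.02, 2.800 and 6.64 TPM, Psmb9 ranged from 1.56 to 7.49 and from 1.23 to 8.84 TPM, and Psmb10 from 5.37 to 12.9 and from 3.15 to 10.7 TPM. Their log2 fold changes were −0.34 (SE 0.50), −0.19 (SE 0.48) and −0.54 (SE 0.39), none of which passed. Single libraries moved them by over 1.5 times, Psmb8 from −0.80 without adult replicate 3 to −0.071 without aged replicate 3, Psmb9 from −0.58 without aged replicate 1 to 0.14 without aged replicate 3, and Psmb10 from −0.82 to −0.32 without the same 2 aged libraries. Together they amounted to 4.91, 4.64, 1.75 and 3.74% of the summed Psmb5, Psmb6 and Psmb7 in adult and 7.62, 3.35, 2.297 and 3.44% in aged kidneys, highest in aged replicate 1. Leukocytes carry much immunoproteasome, and the 6 leukocyte markers summed to 89.9 to 157 TPM in adult and 49.8 to 256 TPM in aged libraries, with none at 0 throughout. Their part in these ratios was not tested.

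The libraries did not differ in 1 direction for all subunits. Aged replicate 3, which had the largest mitochondrial share (46.9%), was the lowest library for 26 of 39 tested members. Adult replicate 1 was the highest for 18 and adult replicate 2 for 14, and these had mitochondrial shares of 20.9% and 19.6%. The part of the mitochondrial share in the lower levels was not tested beyond the rescaling, under which the median of the members was −0.017 and that of all genes 0.14. Adult replicate 1 was the lowest library for Psma7 bar aged replicate 4, and the lowest adult one for Psma3 and Psmd14. Summed 19S subunits amounted to 61.6, 46.2, 39.8 and 47.6% of summed 20S subunits in adult and 46.2, 56.9, 44.4 and 54.95% in aged kidneys, with means of 48.8% ± 9.16 and 50.6% ± 6.22 (SD, n = 4 each), so the libraries of 1 age differed more than the ages. Adult replicate 1 and aged replicate 2, with the highest ratios, also had the most genes at 1 TPM or more (12293 and 12037).

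**Figure D3:**
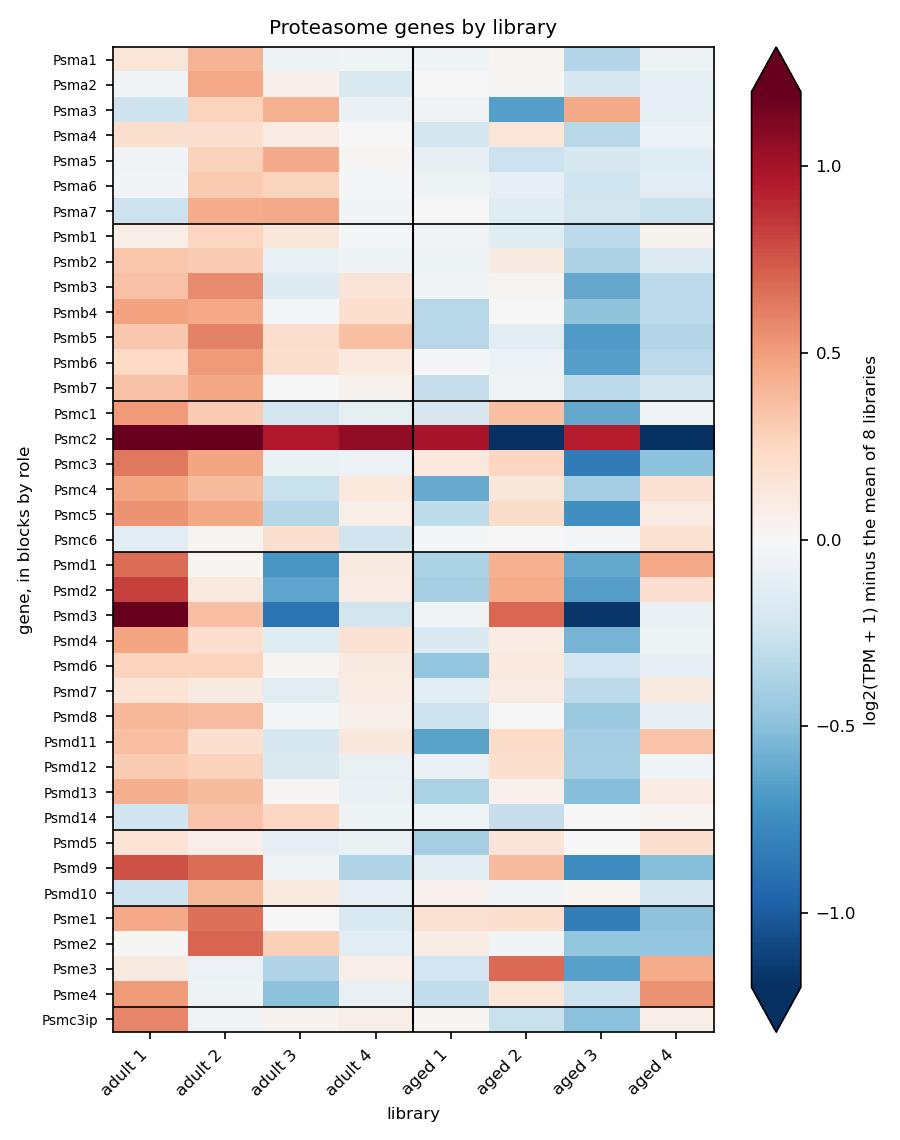
Heat map of the tested genes (rows, in blocks by role) in the 8 libraries (columns), coloured by log2(TPM + 1) minus the gene's mean over all libraries. Aged replicate 3 is the bluest column, being lowest for 26 genes, and Psmc2 is dark blue in aged replicates 2 and 4 alone.

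**Figure D4:**
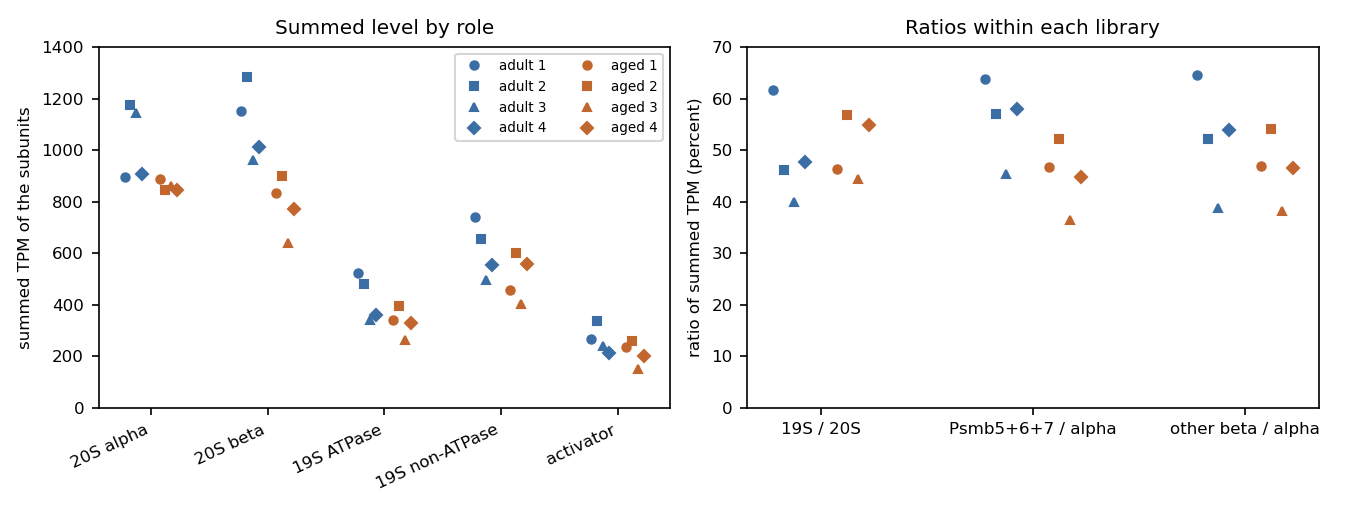
Left, summed TPM of the subunits of each role by library (adult in blue, aged in orange, 1 marker shape per replicate number). Right, ratios of such sums within each library in percent, which do not depend on the scale of the library. For the alpha and beta sums all aged points lie below all adult ones on the deposited scale, and the 3 ratios overlap between ages.

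The Y-linked class moved with some members. With age as a covariate, 4 of 39 tested members (10.3%) were lower in the libraries with Y-linked transcripts by limma adjusted p (Psmc3, Psmd3, Psmd9 and Psme1) and 0 were higher, against 11.3% lower and 1.13% higher among all genes, so the share was near the background. The median age difference of the members was −0.36 in replicates 1 and 2 and −0.18 in replicates 3 and 4, against −0.17 and −0.039 for all genes. A test of the difference between the classes gave a limma adjusted p of 1.00 for every tested member. With 2 libraries of each age in a class, that test cannot show that the classes agree. The beta ring had medians of −0.46 and −0.47, and the non-ATPases −0.44 and −0.081.

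Genes that build and feed the proteasome were followed in 7 lists of 42 genes, of which 0 rose and 0 fell by the test. The 5 chaperones of 20S assembly all had negative log2 fold changes on the deposited scale (median −0.39). Of all genes tested 65% were negative there, with a median of −0.11. Within replicates 1 and 2 Psmg4 had 0.091, and the other chaperones were negative. Pomp, the maturation factor of the beta ring, had adult values of 63.6, 83.4, 67.8 and 62.7 TPM and aged values of 57.00, 58.7, 35.4 and 48.7 TPM, without overlap (log2 fold change −0.48, SE 0.24). With mitochondrial genes removed, Pomp had −0.20. The 4 ubiquitin genes had a median of −0.35. NFE2L1, NFE2L2 and the genes that process NFE2L1 had a median of 0.14, and 2 of 6 were negative. Nfe2l1 had adult values of 60.2, 57.00, 16.9 and 36.9 TPM and aged values of 40.7, 68.6, 15.1 and 41.6 TPM, a spread within each age wider than the difference between ages (log2 fold change −0.068, SE 0.48, and 0.033 with size factors). Sel1l, of the pathway that brings NFE2L1 out of the endoplasmic reticulum, averaged 10.5 ± 4.39 and 12.9 ± 4.31 TPM (log2 fold change 0.29, SE 0.34). Leaving out adult replicate 1 or 3 gave 0.52 or 0.086, and leaving out aged replicate 1 or 2 gave 0.49 or 0.12. The value was 0.57 once mitochondrial genes were removed, and it was −0.043 within replicates 1 and 2. The remaining lists had medians of −0.15 for other 19S subunits and bound enzymes, −0.14 for ubiquitin activation and shuttling, −0.14 for the VCP segregase and −0.34 for the immunoproteasome. In these Ecpas, a 26S scaffold, averaged 11.9 and 8.83 TPM (log2 fold change −0.36, SE 0.31) and Ubxn1, a VCP cofactor, 121 and 88.3 TPM (−0.45, SE 0.26). Ecpas had −0.57 without adult replicate 3 and −0.19 without adult replicate 2, and Ubxn1 had −0.29 without aged replicate 3.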

How the data were processed

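Polyadenylated kidney RNA of 4 adult and 4 aged mice was sequenced from stranded libraries, per the labels' protocols. The deposited values are TPM, 1 column per library. Kallisto, DESeq2 and GRCm38 are named in the submitters' processing notes, with no version, role or order, and the annotation used for the TPM is not given in the sources used here. Column totals were 924798 to 950974 TPM. TPM keeps no read depth, so no counting interval was computed. Identifiers were matched to symbols (29732 of 30153, 98.6%), 14 rows sharing a symbol were summed, and positions came from GENCODE M21 on GRCm38. Promoter sequences came from RefSeq (GRCm38.p6), for 35 of 42 members. Copies were genes with at least 0.5 of their 31-base words in a member.

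All 11796 genes with a mean of at least 1 TPM were compared with limma 3.58.1 (R 4.3.3, variance trend by intensity) as log2(TPM + 1), so that fold changes of genes near the added 1 come out too small, and p was Benjamini-Hochberg adjusted over all of them. The script was tested on simulated data. Members and lists were chosen with earlier results of these data known. Fold changes with SE are given for Psmb5, Psmb6 and Psmb7, the 3 genes with the smallest p in each role (1 among cap chaperones), the 1 with the smallest p in each list, and Nfe2l1 and Psmb8 to Psmb10. Among these, p is printed for Psmb4, Psmb5 and Psmc2 only. Some genes of this rule are not reported here. Psma3 with Gm13835, Psmc6, Psmd11 and Psmd12 were added after their values were seen. The alternatives tried were other pseudocounts (0.1 and 5), other filters (none, or a mean of 5 TPM), size factors, quantile normalization, mitochondrial genes removed, limma without trend or robust, the replicate number as a block, the Y-linked class (limit 10 TPM) as covariate, each library left out and copies added. Removing the trend that each library had with length, values within the Y-linked classes and counts of groups without overlap were added after seeing the data. So was the count of genes near 0 in the same libraries as Psmc2. Replicates are separate animals per the series' design text.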

Additional observations from a re-analysis of the deposited data

Results flagged for a closer look

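Values of 110 groups of 4 libraries were checked for a library far from the other 3, by Dixon's ratio, which chance exceeds in about 1 group in 20, and 3 did. Psmc3ip was highest in adult replicate 1 at 6.94 TPM, against 4.14 to 4.56 TPM in the other adult libraries. Psmc6 was highest in aged replicate 4 at 73.2 TPM, against 63.3 to 64.2 TPM in the other aged libraries. Psmb11 was listed at 0.0110 TPM in adult replicate 4 and at 0 in the other adult libraries.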

How the results depend on the processing

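In all alternatives tested 0 members and 0 list genes passed the adjusted threshold (lowest adjusted p of a member 0.375, with the Y-linked class as covariate). The median of the members was −0.017 with mitochondrial genes removed, −0.044 with quantile normalization and −0.15 with the length trend removed (Psmb5 −0.57, Psmb6 −0.36), against −0.30 as deposited. The difference of their summed TPM (aged minus adult) was −191 with mitochondrial genes removed and −171 with quantile normalization, against −747 as deposited. The median minus that of all genes was −0.16 with mitochondrial genes removed, −0.052 with quantile normalization, −0.15 with the length trend removed and −0.19 as deposited. Over all genes limma called 1 gene without adult replicate 3, 2 without aged replicate 1 and 0 otherwise, with 400 at an unadjusted p under 0.05 (214 to 998 over the alternatives). Leaving out single libraries gave medians of −0.36 to −0.22 and summed differences of −878 to −579 TPM. Members without overlap numbered 5 as deposited (2.11% of all genes lower in this way), 0 with size factors (2.60%), 2 with quantile normalization (1.87%, Psmb4 and Psmb5), 1 with mitochondrial genes removed (0.552%, Psmb5) and 3 with the length trend removed (2.03%, Psmb4, Psmb5 and Psmd4). They numbered 10 (4.37% of all genes) when adult replicate 3 was left out and 9 (5.15%) when aged replicate 2 was. The counts of negative members under each scale stand in the report. Among the genes given with a fold change by rule, signs changed for Psma6 (0.025), Nfe2l1 (0.21) and Psmb9 (0.022) with mitochondrial genes removed, for Psma7 (0.0035), Psma6 (0.040) and Nfe2l1 (0.12) with quantile normalization, and for Nfe2l1 (0.033) with size factors. Without adult replicate 1 Nfe2l1 had 0.14. Without adult replicate 2 it had 0.12 and Psmb9 0.070, and without aged replicate 3 0.34 and 0.14. Leaving out 1 library at a time, Nfe2l1 spanned −0.45 to 0.34, Psmb9 −0.58 to 0.14 and Psme3 −0.084 to 0.36. Psme3 had −0.084 without aged replicate 2 and −0.0059 without aged replicate 4. The cause of these changes was not tested. Same-numbered libraries correlated by 0.038, 0.18, 0.49 and 0.42 in their deviations from the group means across genes, and adult replicate 1 correlated best with aged replicate 2 (0.57), so the numbers were not taken as pairs. With the replicate number as a block 0 members passed (lowest adjusted p 0.558), and 916 genes had an unadjusted p under 0.05. Read depth is unknown, so what it limits could not be computed.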

Other observations

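Other short motifs were searched on both strands of the same 250 bases before each start. The palindromic word of nuclear respiratory factor 1, which is distinct from NFE2L1, occurred in 6 of 35 members and 4.23% of all genes, namely Psma2, Psma3, Psma4, Psmc4, Psmc5 and Psmd14. The ETS word CCGGAAGT occurred in 5 of 35 members and 3.23% of all genes, namely Psmc1, Psmc2, Psmd6, Psmd12 and Psme4. The GC box GGGCGG occurred in 20 of 35 members and 35.4% of all genes. The CCAAT box occurred in 14 of 35 members and 37.5% of all genes, the E box CACGTG in 3 of 35 members and 6.86% of all genes and the cyclic AMP response element TGACGTCA in 0 of 35 members and 1.77% of all genes. None of the words contains another, though matches can overlap in place. These are counts of letters, with no test.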
